A study of Mus musculus with 15 samples.

Results

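The induced pluripotent stem (iPS) cell line IP14D-1 was compared with the embryonic stem (ES) cell line CL11, both of B6D2F1 background, an F1 hybrid of C57BL/6 and DBA/2 mice. The arrays were taken by the line named in their labels, 6 of the 15 arrays in the series, 3 labelled IP14D-1 and 3 labelled CL11. The other arrays, 3 per group, held iPS line IP20D-3 (B6D2F1), iPS line IP14D-101 (C57x129S2 background) and embryonic fibroblasts (MEF, B6D2F1). Embryonic fibroblasts served as starting material for the iPS lines, but those on the arrays differ in background from IP14D-101. All pluripotent lines had been grown on feeder MEFs inactivated with mitomycin C, in medium with LIF and either FBS or knockout serum replacement (KOSR). The labels do not say which serum each line received, so serum and line cannot be told apart. Each line is 1 line, so a difference between these lines is not a difference between iPS and ES cells in general. The samples are called biological replicates without further detail, and p-values measure only the spread between these arrays.

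Pluripotent cells correspond to the epiblast of the early embryo and hold their state through a small network of transcription factors around Oct4 (Pou5f1), Sox2 and Nanog. In culture some of them drift towards primitive endoderm, the sister lineage of the epiblast that later forms visceral and parietal endoderm and lays down basement membrane under the control of Gata6, Gata4, Sox17 and Sox7. They also carry stress programmes common to all cells, among them the amino acid response, in which the transcription factor ATF4 binds a short promoter element, and the unfolded protein response, which raises chaperones of the endoplasmic reticulum (ER). iPS cells come from fibroblasts, whose matrix and contractile genes are shut down during reprogramming.

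Expression was read as MAS5 signal on Affymetrix arrays and is given as log2(signal + 16) after every array was scaled to 1 trimmed mean. A change is the fitted IP14D-1 minus CL11 log2 difference ± standard error (SE) from limma, with 3 arrays in each line. A gene was called at an adjusted p under 0.05 (limma, Benjamini-Hochberg over all 45037 non-control probe sets). Each of the 18193 genes was represented by its brightest probe set; probe sets with the suffix _x or _s, among them those of Vldlr, Prss23, Plagl1, Tpi1, Aurkb, Adm, Meg3, Fgf4 and Acta2, may also read related transcripts. Background was set at 11.04 log2, the 95th percentile of 39 olfactory receptor genes. Where the dimmer line lay below it, a fold is given as "at least", against arrays raised to that background.

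Between 64.8% and 66.5% of genes lay above background on the IP14D-1 arrays and between 62.5% and 65.4% on the CL11 arrays. Over the brightest probe set of each gene, arrays of IP14D-1 correlated with each other at 0.949 to 0.952 and those of CL11 at 0.945 to 0.946. Arrays of the different lines correlated at 0.928 to 0.932, so no array stood apart from its line. The signal ratio of the 3′ to the 5′ end of actin, a measure of RNA integrity and labelling, was 1.37 ± 0.0365 in IP14D-1 and 1.21 ± 0.0184 in CL11 (SD, n = 3 each), and the arrays did not overlap. Its part in the results below was not tested. The cells met their label: of the 37 measured genes of the pluripotency network, 37 lay above background in IP14D-1 and 36 in CL11, against 12 in MEF.

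Of the 18193 genes, 4048 (22.3%) were called. In IP14D-1 1947 genes (10.7%) were higher and 2101 (11.5%) lower. The large fitted changes were mostly rises: 692 called genes were at least 2-fold higher and 354 at least 2-fold lower, and at 4-fold the counts were 240 and 88. These counts include genes below background, whose fitted fold is not reliable. Among all called genes, only CL11 lay below background in 220 rises, only IP14D-1 in 82 falls, and both lines in 131 genes. Over all probe sets, 7747 of 45037 (17.2%) were called. The split between rises and falls depended on the scaling. Of the called genes 48.1% were higher after trimmed-mean scaling, 43.8% after quantile normalisation, 21.3% after median scaling and 88.5% without scaling, where the median change of all genes moved from 0.03 to −0.07, −0.21 and 0.35 log2. Medians of gene lists are therefore given relative to the median of all genes, 0.03 log2. In 7473 genes (41.1%) the 3 IP14D-1 and the 3 CL11 arrays did not overlap, called or not.

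**Figure D1:**
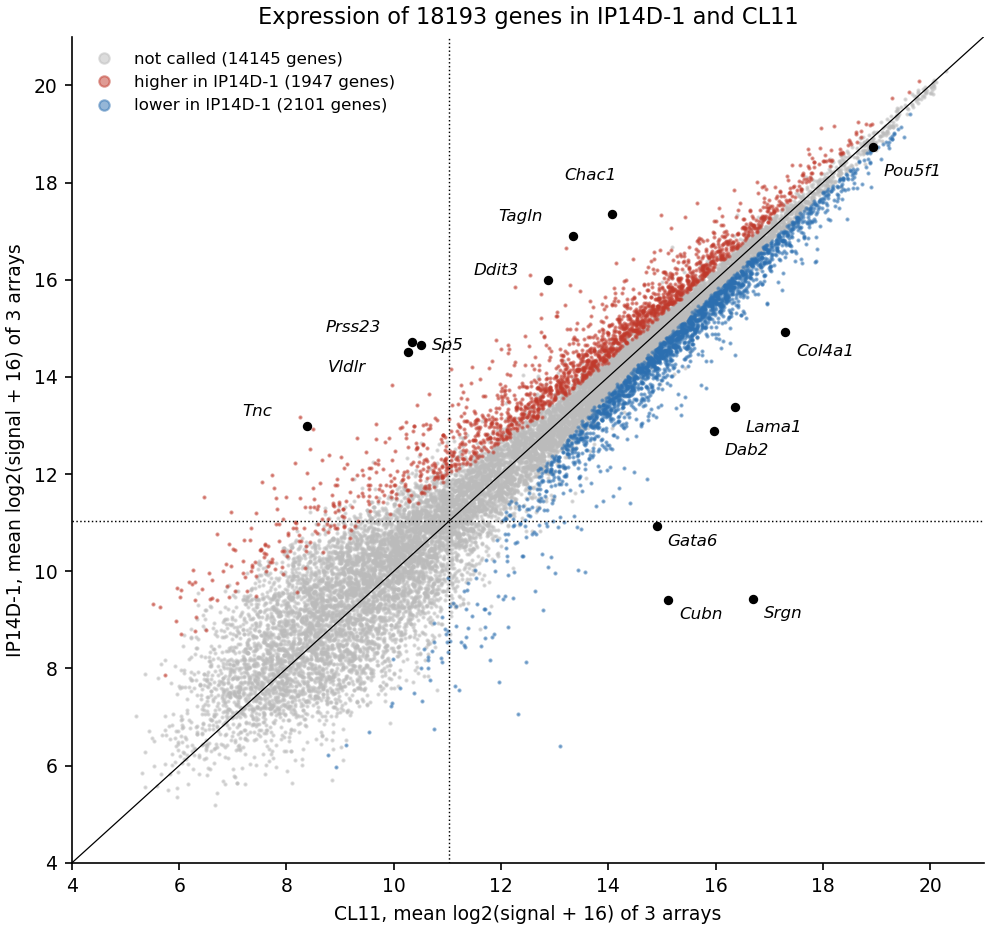
Mean log2(signal + 16) of the 3 IP14D-1 arrays (y axis) against that of the 3 CL11 arrays (x axis) for 18193 genes. Red points are the 1947 genes called higher, blue points the 2101 called lower and grey points genes not called; dotted lines mark background at 11.04 log2. Chac1, Tagln and Ddit3 lie well above the diagonal with both lines above background, and Srgn, Cubn and Gata6 lie in CL11 far above background and in IP14D-1 below it.

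**Figure D2:**
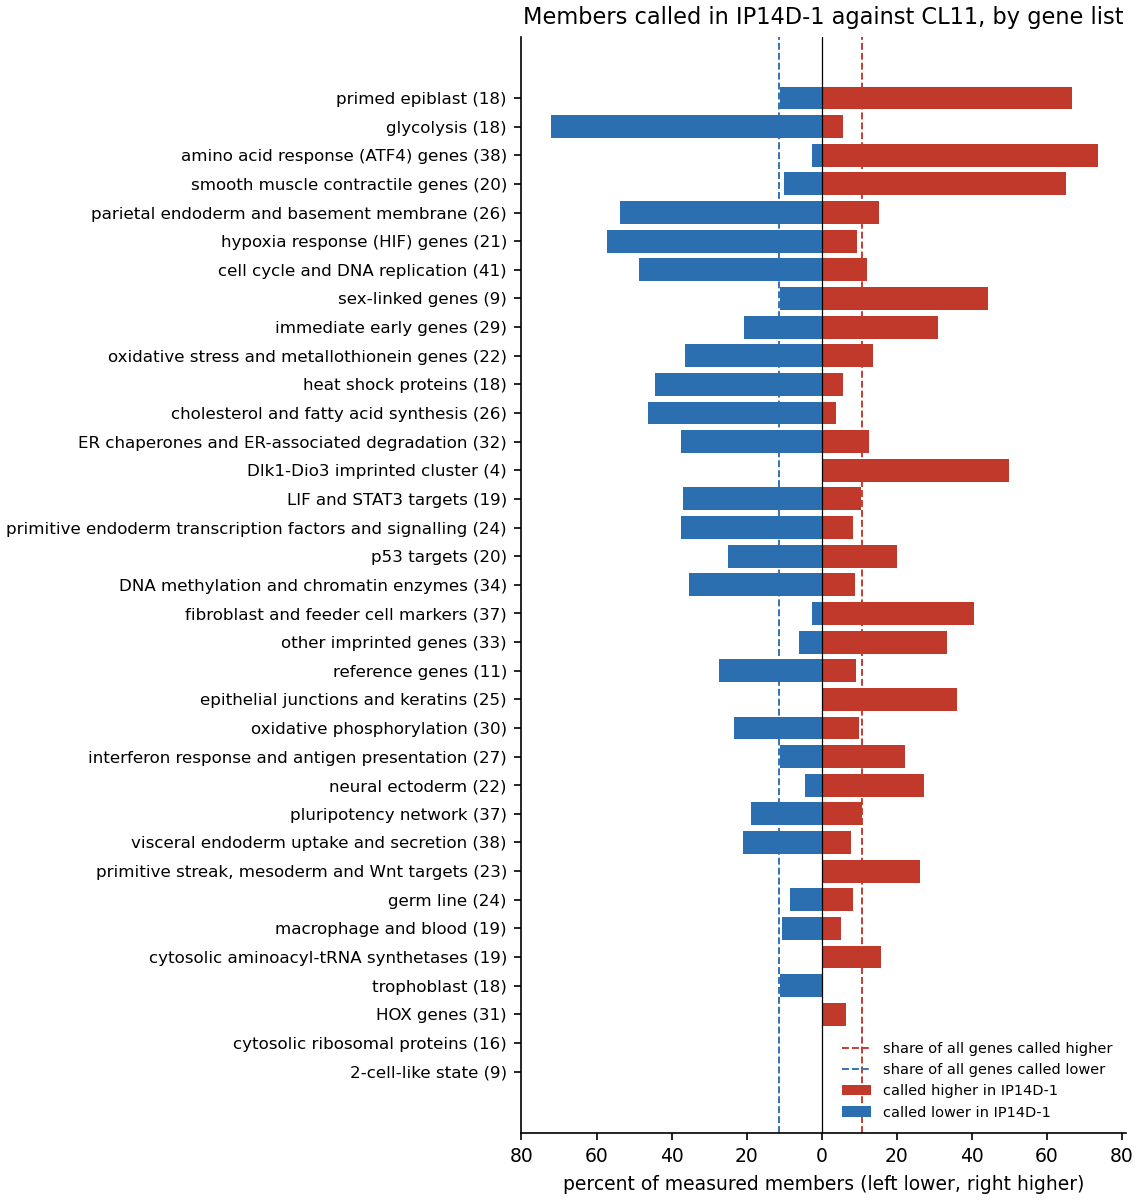
Percent of the measured members (number in brackets) of each gene list called lower (blue, left) or higher (red, right) in IP14D-1 than in CL11. Dashed lines mark the shares of all genes, 11.5% lower and 10.7% higher; without scaling, falls become fewer than rises for several lists with small changes, such as the ER chaperones (7 higher, 1 lower).

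Gata6, Gata4, Sox7 and Sox17, the transcription factors that define this lineage, were all lower in IP14D-1 than in CL11, Gata6 at least 13.4-fold. The surface marker Pdgfra and basement membrane genes such as Lama1 and Col4a1 were lower as well. Of 24 measured transcription factor and signalling genes of primitive endoderm, 9 fell, 2 rose and 13 were not called, and of 26 parietal endoderm and basement membrane genes 14 fell and 4 rose. The first list had a median of −0.54 log2 relative to all genes, the second −0.61, and both stayed negative without scaling and under median scaling and quantile normalisation. In bulk samples fewer endoderm-like cells and less RNA per cell cannot be told apart. Some of these genes are not specific to endoderm. In MEF Gata6 averaged 13.96 log2, Pdgfra 14.43 and Col4a1 19.34, all above IP14D-1. Lama1 (12.81) was lower in MEF than in IP14D-1, and Gata4 (9.86), Sox7 (8.83) and Sox17 (9.86) lay below background there. The part of feeder cells in these falls was not tested.

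Gata6, the factor that sets the endoderm fate, read 10.35, 11.01 and 11.42 log2 on the IP14D-1 arrays and 14.78, 15.07 and 14.87 on the CL11 arrays. All CL11 values lay far above background, and the IP14D-1 values lay on both sides of it (fall of at least 13.4-fold, adjusted p = 1.7e-09). A second probe set of Gata6 fell at least 7.40-fold. Gata4, its partner in endoderm, read 11.13, 11.56 and 11.67 in IP14D-1 and 13.95, 13.98 and 13.77 in CL11, a change of −2.45 ± 0.42 (adjusted p = 0.000449). Sox7, which acts with Gata factors on laminin genes, read 11.39, 11.18 and 11.67 against 14.37, 14.47 and 14.36 (−2.99 ± 0.36, adjusted p = 1.4e-05). For Gata4 and Sox7 the groups did not overlap, and IP14D-1 kept a low level just above background. Sox17 read 11.34, 10.61 and 7.95 in IP14D-1 and 12.79, 13.06 and 13.19 in CL11. Its fall, at least 3.67-fold (adjusted p = 0.00329), was the most uneven of these, with IP14D-1 arrays that spread over more than 3 log2.

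Pdgfra, a growth factor receptor used to mark primitive endoderm, read 9.61, 10.58 and 9.76 in IP14D-1, all below background, and 13.63, 13.56 and 13.50 in CL11. It fell at least 5.75-fold (adjusted p = 2.93e-05). Dab2, an adaptor for endocytosis needed to sort endoderm to the surface of embryoid bodies, read 12.90, 13.03 and 12.74 against 16.01, 15.91 and 15.97, a change of −3.07 ± 0.10 (adjusted p = 1.31e-12). Dab2 thus stayed above background in IP14D-1 while falling 8.41-fold. The forkhead factor Foxa2 fell at least 1.78-fold (adjusted p = 0.0141), a call lost without CL11 replicate 2 (adjusted p = 0.052) or IP14D-1 replicate 2 (adjusted p = 0.092). Otx2, which is active in both epiblast and visceral endoderm, moved the other way and read 14.66, 14.84 and 14.85 against 13.57, 13.17 and 13.43 (1.40 ± 0.20, adjusted p = 7.9e-05). Grb10, an imprinted adaptor of insulin signalling, was the other member that rose (0.57 ± 0.08, adjusted p = 7.92e-05), a call lost under median scaling.

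Among visceral endoderm genes of uptake and secretion, 8 of 38 fell and 3 rose, and 27 were not called; 24 of the 38 lay above background in at least 1 of the lines. Cubn and Amn encode cubilin and amnionless, the 2 subunits of an endocytic receptor. Cubn read 8.78, 9.33 and 10.13 in IP14D-1 against 15.08, 15.04 and 15.23 in CL11 and was at least 16.9-fold lower (adjusted p = 2.53e-07). Amn read 12.53, 11.80 and 11.81 against 14.42, 14.28 and 14.73, a change of −2.43 ± 0.25 (adjusted p = 2.24e-06). Cubn was thus lost to background while Amn stayed above it. Dpp4 (0.90 ± 0.28, adjusted p = 0.0355), the lipid carrier Apoe (0.55 ± 0.12, adjusted p = 0.00439) and the protease Ctsc (0.94 ± 0.12, adjusted p = 1.86e-05) rose. Leaving out any 1 of the 6 arrays ended the call of Dpp4 (adjusted p = 0.0509 to 0.143), and Dpp4 and Apoe lost it under median scaling.

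Basement membrane genes fell with both lines well above background. Lama1, the laminin chain specific to embryonic basement membranes, read 13.31, 13.53 and 13.29 in IP14D-1 and 16.29, 16.30 and 16.48 in CL11 (−2.98 ± 0.16, adjusted p = 8.74e-10). Col4a1, a chain of collagen IV, read 14.94, 14.96 and 14.87 against 17.34, 17.32 and 17.24 (−2.37 ± 0.09, adjusted p = 1.37e-11). Col4a2, its partner chain, changed by −2.05 ± 0.15 (adjusted p = 4.67e-08). The arrays of each line lay close together for these 3 genes, and the lines did not overlap. The collagen prolyl hydroxylases P4ha1 and P4ha2 fell by 1.61 and 1.73 log2 (adjusted p = 2.02e-07 and 4.97e-07). Both are also counted among the hypoxia genes below. Srgn, the core protein of the proteoglycan serglycin, had the highest bound of all called genes. It read 10.91, 9.64 and 7.74 against 16.60, 16.68 and 16.81 and was at least 50.6-fold lower (adjusted p = 1.14e-08). Pth1r, a hormone receptor of parietal endoderm, was at least 4.61-fold lower (adjusted p = 4.05e-06). The keratins Krt8 (0.87 ± 0.14, adjusted p = 0.000205) and Krt18 (1.21 ± 0.10, adjusted p = 1.6e-07), shared by parietal endoderm and other epithelia, rose, as did Fst, an inhibitor of activin, which read 14.77, 14.57 and 14.92 against 12.02, 11.95 and 11.77 (2.84 ± 0.22, adjusted p = 1.09e-07).

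**Figure D3:**
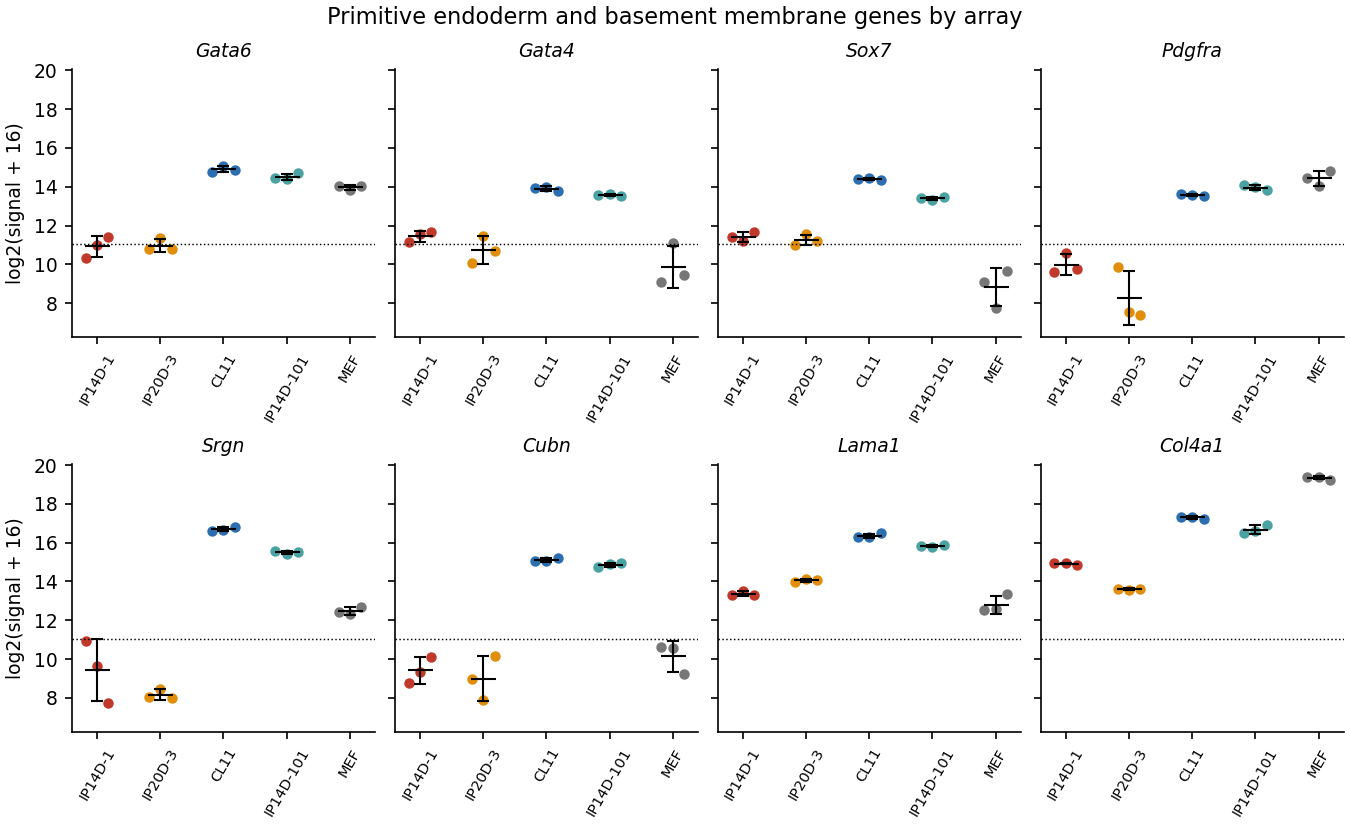
Log2(signal + 16) of 8 endoderm and basement membrane genes on each of the 15 arrays (points), with the mean and SD of 3 arrays (bars) and background (dotted line, 11.04). In every panel the 3 IP14D-1 arrays lie below the 3 CL11 arrays; for Gata6 IP14D-1 averaged 10.93 and CL11 14.91, while IP20D-3 averaged 10.96 and IP14D-101 14.51.

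Levels of these genes in the other iPS lines differed by line. Gata6 averaged 10.96 log2 in IP20D-3 and 14.51 in IP14D-101, and Dab2 12.33 and 15.72. Against IP20D-3, 3 of the 24 primitive endoderm genes were called higher in IP14D-1 and none lower; against IP14D-101, 3 were higher and 10 lower. These comparisons use the same IP14D-1 arrays as the comparison with CL11. Over all genes, 1346 of 18193 (7.4%) were called between IP14D-1 and IP20D-3, 642 (3.53%) higher and 704 (3.87%) lower in IP14D-1. Between IP14D-1 and IP14D-101 4892 (26.9%) were called, 2279 (12.5%) higher and 2613 (14.4%) lower, and there line and genetic background cannot be told apart. Col4a1 averaged 13.61 in IP20D-3, lower than in IP14D-1 by 1.32 log2 (adjusted p = 4.82e-08).

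The amino acid response was higher in IP14D-1. Of 38 measured genes 28 rose and 1 fell, where 10.7% of all genes rose, and the list's median was 0.69 log2 relative to all genes. It stayed positive without scaling (32 higher, 1 lower), under median scaling (19 higher, 1 lower) and under quantile normalisation (27 higher, 1 lower). The largest rises with both lines above background were those of Chac1, Ddit3, Atf3, Jdp2, Stc2 and Trib3, and Vldlr rose from below background. The promoters of Vldlr, Chac1 and Ddit3, the members with the largest fitted changes, are shown here. The windows run from 250 bases before to 50 after the start in RefSeq (GRCm38.p6). The ATF4-bound element can lie in such windows, and sequence outside them was not searched. The search was for the core TGATGNAA on both strands. Capitals mark a match, which reads as its reverse complement on the printed strand; Vldlr has 2 windows, of which the matching one is shown, and Ddit3 has no match in this window.
Vldlr, chr19:27216770-27217069, plus strand: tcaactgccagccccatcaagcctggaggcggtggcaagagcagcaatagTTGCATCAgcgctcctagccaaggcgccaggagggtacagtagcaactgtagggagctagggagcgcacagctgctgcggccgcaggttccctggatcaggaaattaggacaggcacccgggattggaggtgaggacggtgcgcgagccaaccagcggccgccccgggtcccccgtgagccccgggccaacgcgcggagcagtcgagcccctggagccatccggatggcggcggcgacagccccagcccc
Chac1, chr2:119350992-119351291, plus strand: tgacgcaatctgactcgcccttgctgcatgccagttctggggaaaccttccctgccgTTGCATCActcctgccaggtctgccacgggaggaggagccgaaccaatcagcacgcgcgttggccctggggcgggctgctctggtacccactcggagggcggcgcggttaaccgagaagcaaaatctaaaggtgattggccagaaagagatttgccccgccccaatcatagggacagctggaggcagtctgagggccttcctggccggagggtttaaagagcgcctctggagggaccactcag
Ddit3, chr10:127290543-127290842, plus strand: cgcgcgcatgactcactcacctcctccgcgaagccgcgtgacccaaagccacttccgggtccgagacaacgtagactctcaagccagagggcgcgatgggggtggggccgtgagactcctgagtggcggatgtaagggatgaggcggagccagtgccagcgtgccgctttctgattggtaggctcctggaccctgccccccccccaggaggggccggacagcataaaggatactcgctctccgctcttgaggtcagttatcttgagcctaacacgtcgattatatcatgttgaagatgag

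Of the 32851 promoter windows in RefSeq 1304 (3.97%) held the core. Among members of the amino acid list with a window it was found in 10 of 32, in 8 of 26 genes that rose and in 2 of 5 that were not called. In Chac1 the match begins 193 bases and in Vldlr 200 bases before the start. A match is a string of letters and not a measured binding site.

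Chac1, which degrades glutathione, read 17.46, 17.57 and 17.06 log2 in IP14D-1 and 14.38, 14.04 and 13.80 in CL11, a change of 3.29 ± 0.14 (adjusted p = 4.37e-11). Ddit3, the stress transcription factor CHOP, read 16.24, 16.27 and 15.46 against 12.90, 13.22 and 12.52 (3.11 ± 0.24, adjusted p = 9.3e-08). Vldlr, a lipoprotein receptor, read 14.53, 15.13 and 13.86 against 10.18, 11.84 and 8.79 and was at least 9.20-fold higher (adjusted p = 1.26e-05). All 3 genes separated the lines without overlap, and in each the third IP14D-1 array was the lowest of its line. Vldlr is read here by a probe set that can cross-hybridise; 3 other probe sets of the gene were also called higher, at least 3.68-, 2.13- and 2.56-fold.

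Atf3, a transcription factor induced by ATF4, read 14.87, 14.77 and 14.05 against 11.95, 11.97 and 12.09 (2.56 ± 0.21, adjusted p = 1.33e-07). Trib3, an inhibitor of ATF4 and AKT signalling, read 16.60, 16.90 and 15.76 against 14.65, 14.43 and 14.30 (1.96 ± 0.23, adjusted p = 8.37e-06). Atf4 itself rose less, with 18.46, 18.37 and 18.27 against 17.38, 17.56 and 17.30 (0.95 ± 0.10, adjusted p = 1.73e-06); its activity is set largely by translation, which arrays do not read. Jdp2, a relative of Atf3 in the AP-1 family, changed by 2.41 ± 0.26 (adjusted p = 3.52e-06) and Stc2, a secreted glycoprotein, by 1.99 ± 0.21 (adjusted p = 2.75e-06). Fgf21, a hormone induced by amino acid shortage, passed only narrowly (at least 1.23-fold, adjusted p = 0.0367), and its call was lost without any array other than CL11 replicate 1 (adjusted p = 0.0666 to 0.157).

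The rise did not extend to every target. Asns, asparagine synthetase and a classical ATF4 target whose window holds the core, read 18.24, 18.35 and 18.14 in IP14D-1 and 18.06, 18.26 and 18.09 in CL11, overlapping groups with a change of 0.11 ± 0.10 (adjusted p = 0.558). Slc7a11, the cystine carrier, lay below background on average in both lines (10.94 and 9.08) and was not called (adjusted p = 0.145). Cbs, which makes cystathionine, was the member that fell (−1.10 ± 0.20, adjusted p = 0.000623). Cytosolic aminoacyl-tRNA synthetases, also ATF4 targets, had 3 of 19 members higher and none lower, close to the 10.7% of all genes; Lars, the leucine enzyme, changed by 0.47 ± 0.07 (adjusted p = 0.000182). The count depended on the scaling, with 10 higher and none lower without scaling and 7 higher and none lower under quantile normalisation. Under median scaling 5 of the 19 were lower and none higher, and 1 was higher without CL11 replicate 1, IP14D-1 replicate 1 or IP14D-1 replicate 2.

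Of 32 genes of ER folding and degradation 12 fell, 4 rose and 16 were not called, with a median of −0.25 log2 relative to all genes, a split that turned to 1 lower and 7 higher without scaling. The falls included the chaperones Hspa5 and Calr, and the rises were those of Herpud1, Crebrf, Dnajb9 and Derl1. The promoters of 3 members are shown for comparison with those above, Herpud1 as the largest rise and Hspa5 and Creld2 as falls with a match, all chosen after their values were seen. In Hspa5 and Creld2 the capitals mark the ER stress response element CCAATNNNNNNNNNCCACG, searched on both strands, and in Herpud1 the amino acid core.
Herpud1, chr8:94386179-94386478, plus strand: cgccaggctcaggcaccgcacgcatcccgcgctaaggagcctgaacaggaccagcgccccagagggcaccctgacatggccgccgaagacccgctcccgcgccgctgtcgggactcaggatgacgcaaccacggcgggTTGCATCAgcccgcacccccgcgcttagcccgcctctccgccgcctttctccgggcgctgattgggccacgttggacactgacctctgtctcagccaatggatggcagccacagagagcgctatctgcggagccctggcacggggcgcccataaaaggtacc
Hspa5, chr2:34771840-34772139, plus strand: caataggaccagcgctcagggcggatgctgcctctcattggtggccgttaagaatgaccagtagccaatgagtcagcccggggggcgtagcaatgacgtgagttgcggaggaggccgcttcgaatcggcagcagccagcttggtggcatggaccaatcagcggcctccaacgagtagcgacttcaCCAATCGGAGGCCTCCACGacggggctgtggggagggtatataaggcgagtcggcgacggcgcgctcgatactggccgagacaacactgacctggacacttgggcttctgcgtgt
Creld2, chr15:88819396-88819695, plus strand: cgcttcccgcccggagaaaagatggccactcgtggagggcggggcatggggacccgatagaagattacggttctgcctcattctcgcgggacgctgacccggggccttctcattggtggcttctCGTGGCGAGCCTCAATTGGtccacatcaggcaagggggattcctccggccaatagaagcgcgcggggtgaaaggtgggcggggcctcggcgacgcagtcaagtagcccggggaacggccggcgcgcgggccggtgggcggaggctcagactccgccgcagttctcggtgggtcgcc

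The ER stress element, in the spacing given above, was found in 39 of the 32851 windows (0.119%). Other spacings or orientations of its parts were not searched, so a window without a match may still hold another form. It was found in 10 of the 27 ER list members with a window, in 5 of 11 that fell, none of 3 that rose and 5 of 13 that were not called. The amino acid core was found in 1 of the 27, Herpud1, 112 bases before its start. No window of either list held both motifs.

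Herpud1, which links the ER membrane to protein degradation, read 15.99, 16.03 and 15.66 log2 in IP14D-1 and 12.94, 13.55 and 13.35 in CL11 (2.62 ± 0.13, adjusted p = 3.43e-10). Crebrf, a regulator of the unfolded protein response, changed by 2.40 ± 0.16 (adjusted p = 9.63e-09), Dnajb9, a co-chaperone of degradation, by 1.00 ± 0.10 (adjusted p = 1.16e-06) and Derl1, a channel for misfolded proteins, by 0.71 ± 0.08 (adjusted p = 2.99e-06). Hspa5, the ER chaperone BiP, read 17.75, 17.68 and 18.24 against 18.37, 18.69 and 18.62 (−0.67 ± 0.16, adjusted p = 0.00596). The third IP14D-1 array, lowest for the amino acid genes, was the highest of its line for Hspa5 and still below every CL11 array. Xbp1, the transcription factor that drives ER chaperones, fell by 0.80 log2 (adjusted p = 2.36e-05) and Sdf2l1, a BiP partner, by 0.90 (adjusted p = 0.00227). Calr and Creld2, chosen after their values were seen, fell by 0.48 log2 each (adjusted p = 0.000258 and 0.00426). The calls of Hspa5, Sdf2l1, Calr and Creld2 were lost without scaling.

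**Figure D4:**
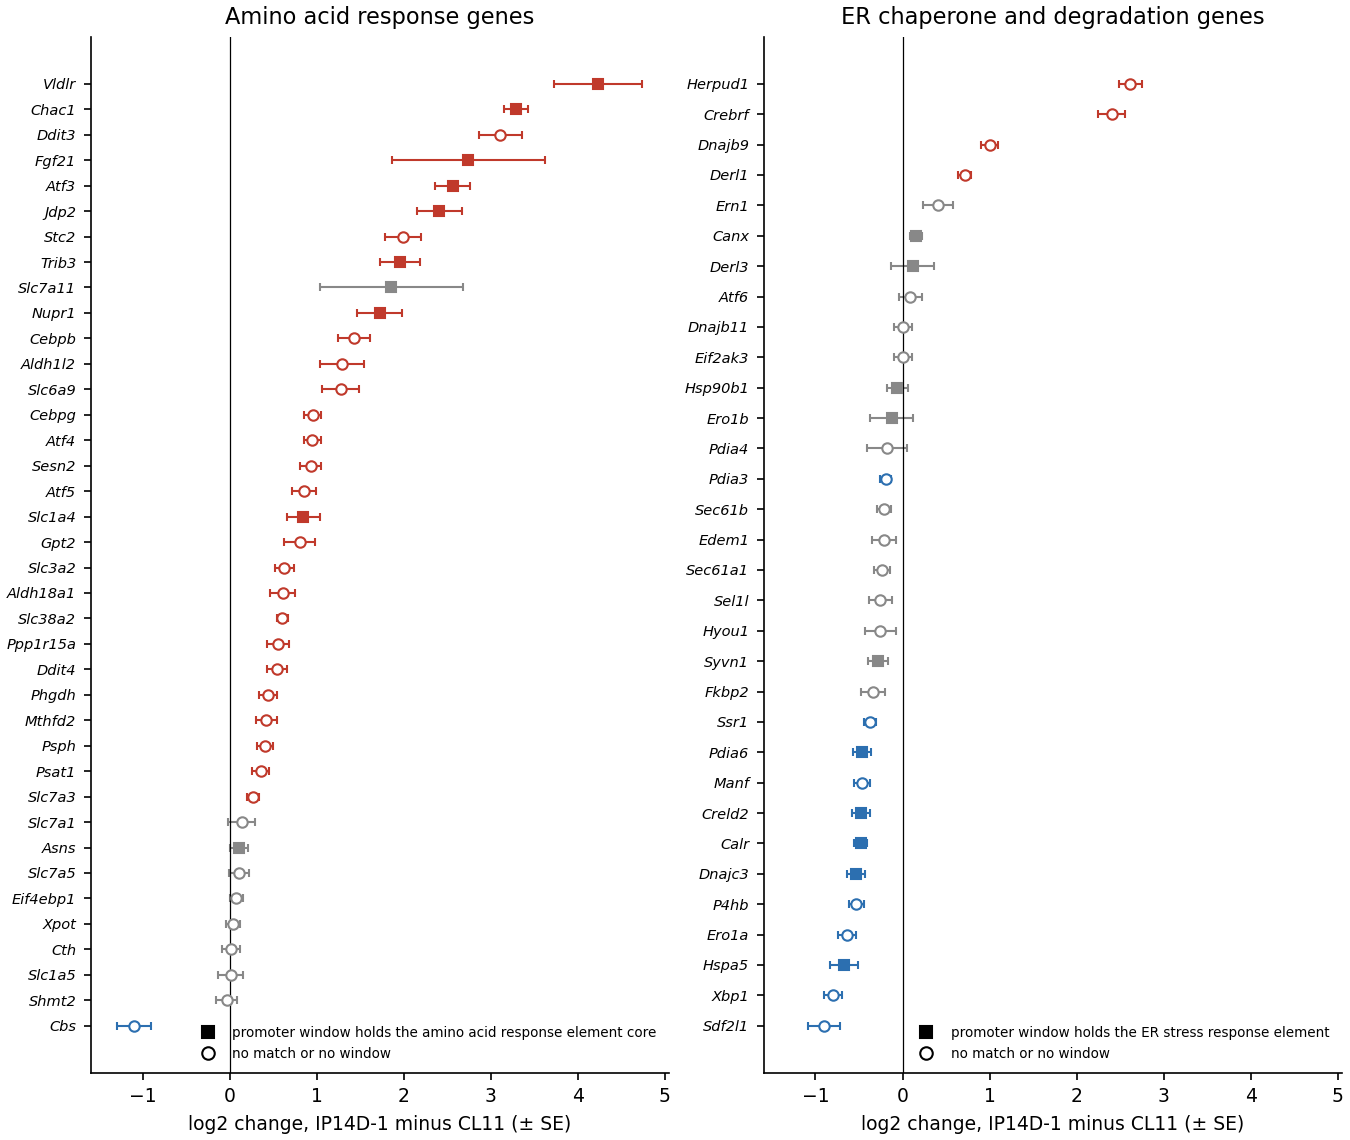
Change in log2 (IP14D-1 minus CL11, ± SE) of the 38 amino acid response genes (left) and the 32 ER genes (right), coloured red where called higher, blue where called lower and grey where not called. Filled squares are genes whose promoter window holds the motif named in the panel. Chac1 at 3.29 and Ddit3 at 3.11 lead the left panel with Vldlr, while most of the right panel lies left of 0, a placement that turns without scaling.

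In the other iPS lines the amino acid genes again differed by line. Ddit3 averaged 15.98 log2 in IP20D-3 and 12.58 in IP14D-101, and Trib3 16.38 and 13.82. Against IP20D-3, 2 of the 38 genes were called higher in IP14D-1 and 2 lower; against IP14D-101, 26 were higher and 3 lower. Chac1 was 0.61 log2 higher in IP14D-1 than in IP20D-3 (adjusted p = 0.0153).

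Glycolysis and hypoxia genes were mostly lower in IP14D-1. Of 18 glycolysis genes 13 fell and 1 rose, with a median of −0.55 log2 relative to all genes, and of 21 genes of the hypoxia response 12 fell and 2 rose, with a median of −0.65. Without scaling 4 and 7 of them fell and 1 and 4 rose. P4ha1 and P4ha2 are also in the basement membrane list and Ero1a in the ER list, so their falls count in both. The hypoxia median shrank to −0.39 without CL11 replicate 1 or 2 and to −0.38 without IP14D-1 replicate 3, with 10 to 11 genes lower. Hk2, the hexokinase induced in fast-growing cells, read 16.64, 16.45 and 16.81 log2 in IP14D-1 and 17.85, 17.95 and 17.89 in CL11 (−1.26 ± 0.10, adjusted p = 9.77e-08). Pfkp, a phosphofructokinase, was 2.30-fold lower (adjusted p = 2.1e-08), Tpi1, triosephosphate isomerase, by −0.99 ± 0.09 (adjusted p = 5.88e-07) and the lactate exporter Slc16a3 by −1.29 ± 0.19 (adjusted p = 0.000125). The groups did not overlap for any of these 4. Pfkfb3, which makes an activator of phosphofructokinase, was the exception and read 13.77, 13.47 and 13.60 against 11.74, 11.22 and 12.14 (1.91 ± 0.22, adjusted p = 8.35e-06).

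Egln3, the oxygen-sensing hydroxylase that hypoxia factors induce, read 13.26, 12.90 and 13.92 in IP14D-1 and 15.27, 15.34 and 15.17 in CL11 (−1.90 ± 0.26, adjusted p = 4.14e-05). Epas1, which encodes HIF-2α, changed by −1.48 ± 0.11 (adjusted p = 4.67e-08), and Adm, the vasodilator adrenomedullin, was at least 2.09-fold lower (adjusted p = 0.000493). Hif1a, which encodes HIF-1α, rose slightly (0.41 ± 0.07, adjusted p = 0.000363), a call lost under median scaling, and Rragd, a GTPase that reports amino acid supply, rose by 1.72 log2 (adjusted p = 4.87e-07). Vegfa, the best-known hypoxia target, read 14.20, 14.63 and 13.85 against 13.95, 13.81 and 14.02 and was not called (adjusted p = 0.251). Its arrays overlapped between the lines. In IP20D-3 Egln3 averaged 13.48 and in IP14D-101 15.04.

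Of 26 genes of cholesterol and fatty acid synthesis 12 fell and 1 rose, with a median of −0.34 relative to all genes; 2 fell and 3 rose without scaling. Scd1, which desaturates fatty acids, changed by −1.11 ± 0.15 (adjusted p = 4.24e-05), and Srebf2, the transcription factor of cholesterol genes, by −0.79 ± 0.11 (adjusted p = 4.66e-05). Cyp51, a sterol demethylase, was the member that rose (0.74 ± 0.09, adjusted p = 1.91e-05). Oxidative phosphorylation stood nearer to the background of all genes, with 7 of 30 lower and 3 higher and a median of −0.17, and without scaling 7 were higher and none lower. With single arrays left out, 3 to 6 were lower (3 without IP14D-1 replicate 2, 4 without IP14D-1 replicate 1 or CL11 replicate 2 or 3) and 1 was higher, or 2 without CL11 replicate 2. Uqcrh, of respiratory complex III, changed by −0.64 ± 0.11 (adjusted p = 0.000304) and Ndufs4, of complex I, by 0.46 ± 0.07 (adjusted p = 0.000151).

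Cell cycle and DNA replication genes were lower in 20 of 41 cases and higher in 5, with a median of −0.26 log2 relative to all genes, and without scaling 5 were lower and 9 higher. Without CL11 replicate 2 or 3, 13 were lower. Ccnd3, a D-type cyclin, read 16.44, 16.32 and 16.37 in IP14D-1 and 17.78, 17.96 and 17.86 in CL11 (−1.49 ± 0.10, adjusted p = 9.46e-09). Aurkb, a mitotic kinase, changed by −1.02 ± 0.10 (adjusted p = 2.01e-06), Ccne1, the cyclin of S phase entry, by −0.71 ± 0.11 (adjusted p = 0.00023) and E2f1, a transcription factor of the same step, by −0.75 ± 0.12 (adjusted p = 0.000262). The members that rose were the cyclins Ccnd2 and Ccne2 and 3 inhibitors of cyclin-dependent kinases. The calls of both cyclins were lost under median scaling, and that of Ccne2 also when any 1 array of these lines was left out. Cdkn2b, which encodes p15, read 13.44, 13.89 and 13.56 against 12.12, 12.24 and 12.38 (1.39 ± 0.23, adjusted p = 0.000304). Cdkn2a, the locus of p16 and p19Arf, was at least 2.01-fold higher (adjusted p = 0.00841), and Cdkn1c, an imprinted inhibitor, changed by 0.82 ± 0.19 (adjusted p = 0.0044), a call lost under median scaling. Genes induced by p53 showed no common direction, with 4 of 20 higher and 5 lower, 10 higher and 1 lower without scaling and 3 lower without IP14D-1 replicate 2; Pmaip1, which promotes apoptosis, changed by 1.03 ± 0.08 (adjusted p = 1.14e-07).

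Fibroblast genes such as Col1a1 and Tnc and contractile genes such as Tagln and Acta2 were higher in IP14D-1 than in CL11. Of 37 fibroblast and feeder cell markers 15 rose, 1 fell and 21 were not called, with a median of 0.77 log2 relative to all genes, and 25 of the 37 lay above background in IP14D-1 against 14 in CL11 and 36 in MEF. Of 20 contractile genes of smooth muscle 13 rose and 2 fell, with a median of 0.39. Both medians stayed positive without scaling and under median scaling and quantile normalisation. The summed signal of the 37 fibroblast markers was 592706 to 602363 on the IP14D-1 arrays, 402638 to 427851 on the CL11 arrays and 12984731 to 14202408 on the MEF arrays. The part of feeder cells carried into the samples in these differences was not tested.

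Col1a1, the main chain of collagen I, read 12.29, 12.18 and 12.38 log2 in IP14D-1 and 8.67, 7.64 and 9.69 in CL11, and was at least 2.37-fold higher (adjusted p = 0.000138). Postn, the matrix protein periostin, read 11.51, 11.38 and 11.63 against 7.75, 7.53 and 8.15, at least 1.38-fold higher (adjusted p = 0.000943). All CL11 arrays lay below background for both genes, and all IP14D-1 arrays above it. In MEF Col1a1 averaged 19.74 and Postn 19.84, so the IP14D-1 signal was 0.565% and 0.308% of the fibroblast signal. Lox, which cross-links collagen, read 13.61, 13.56 and 13.76 against 10.90, 9.89 and 11.18 (at least 5.88-fold, adjusted p = 1.92e-05), 1.78% of the MEF signal. Tnc, the matrix protein tenascin C, read 13.03, 12.93 and 13.00 and was below background on every CL11 array (at least 3.86-fold, adjusted p = 1.24e-08), 1.31% of MEF. Col3a1 (at least 3.22-fold), Ccn4 (at least 3.68-fold), Bgn (at least 3.94-fold) and Mmp3 (at least 1.83-fold) also rose. Mmp3, a matrix protease, reached 89.6% of its MEF signal. It averaged 11.91 log2 in IP14D-1, near background, so its MEF signal was low as well. Tgfbi, a matrix protein induced by TGF-β, was the member that fell (−0.82 ± 0.26, adjusted p = 0.0343). The call of Tgfbi was lost without CL11 replicate 1 or 2 or IP14D-1 replicate 2 or 3 (adjusted p = 0.0748 to 0.157).

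The contractile genes stood higher relative to MEF. Tagln, the actin-binding protein SM22, read 16.84, 16.85 and 17.02 log2 in IP14D-1 and 13.51, 13.22 and 13.30 in CL11 (3.56 ± 0.11, adjusted p = 1.31e-12). Acta2, smooth muscle actin, read 16.63, 16.67 and 16.65 against 13.27, 13.38 and 12.98 (3.44 ± 0.12, adjusted p = 3.68e-12). Both were above background in both lines, and their IP14D-1 signal was 17.4% and 10.1% of MEF, against 1.47% and 0.932% in CL11. Myl9, a myosin light chain, changed by 2.03 ± 0.17 (adjusted p = 1.63e-07) and stood at 4.10% of MEF, and Tpm1, a tropomyosin, by 1.20 ± 0.08 (adjusted p = 2.1e-08) at 21.6%. Cnn1, calponin, was at least 3.25-fold higher (adjusted p = 2.73e-05), and Ankrd1 (at least 1.52-fold, adjusted p = 0.00101) rose from below background. Over the list the median was 14.9% of the MEF signal in IP14D-1 and 7.9% in CL11; over 36 fibroblast markers it was 1.85% and 1.12%. Tagln2, a relative of Tagln that is not specific to muscle, and Des, the intermediate filament desmin, fell by 0.65 and 0.84 log2 (adjusted p = 0.000476 and 0.0173), calls lost without scaling; that of Des was also lost without CL11 replicate 1 or 3 or IP14D-1 replicate 1 or 3 (adjusted p = 0.0518 to 0.0879).

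**Figure D5:**
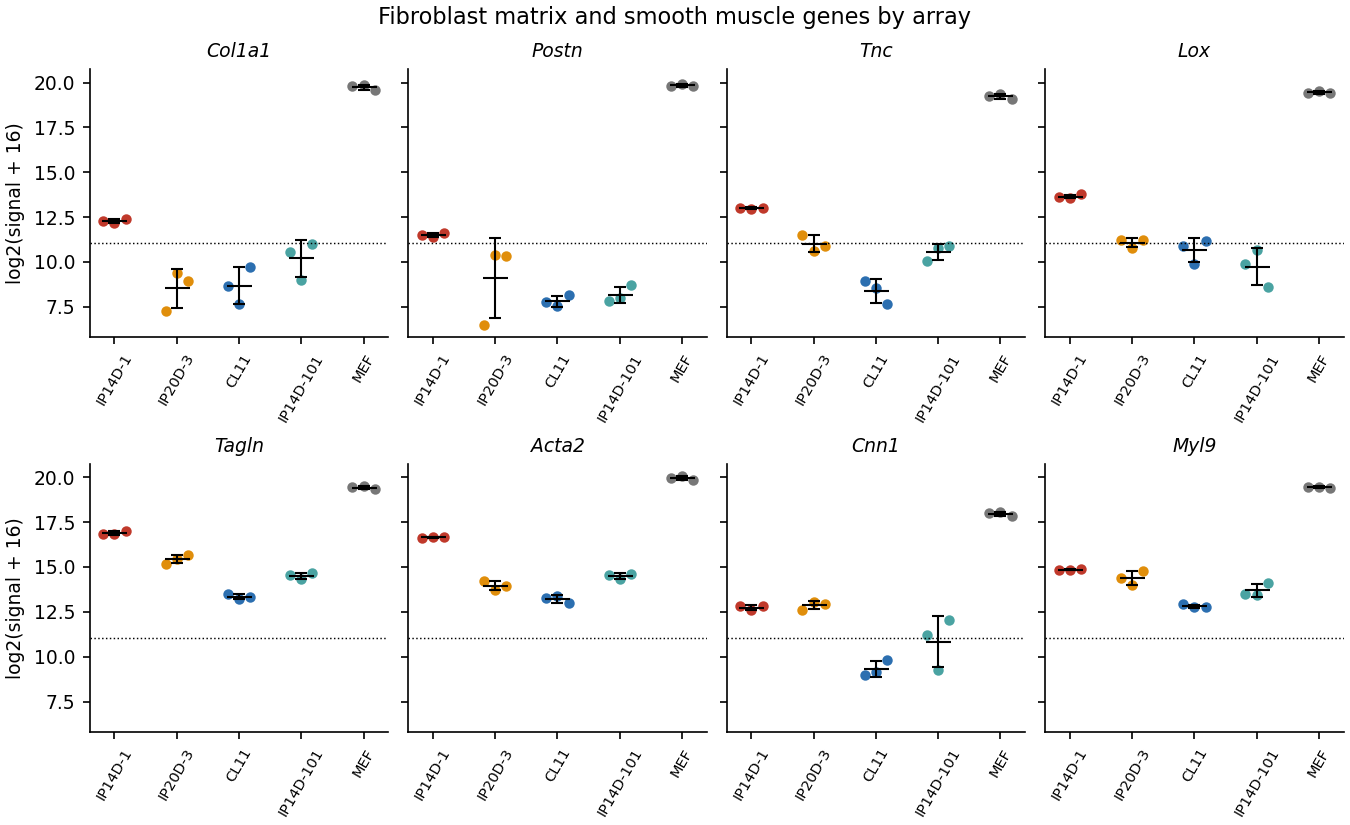
Log2(signal + 16) of 4 fibroblast matrix genes (top) and 4 smooth muscle genes (bottom) on each of the 15 arrays, with the mean and SD of 3 arrays (bars) and background (dotted line, 11.04). IP14D-1 lies above CL11 in every panel and far below MEF in the top row; Col1a1 averaged 12.28 in IP14D-1, 8.67 in CL11 and 19.74 in MEF, and Tagln 16.90, 13.34 and 19.43.

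The same IP14D-1 arrays were compared with the other iPS lines. Against IP20D-3, 15 of the 37 fibroblast markers were higher in IP14D-1 and 1 was lower, and against IP14D-101 18 were higher and none lower, where 3.53% and 12.5% of all genes were higher. Col1a1 lay below background in both and was at least 2.37-fold higher in IP14D-1 than in each (adjusted p = 0.000334 and 0.00925), and Acta2 was 2.70 and 2.15 log2 higher (adjusted p = 1.6e-10 and 1.79e-09). Of the 20 smooth muscle genes 8 were higher than in IP20D-3 and none lower, and 13 were higher than in IP14D-101 and 2 lower. Cnn1 averaged 12.74 in IP14D-1 and 12.88 in IP20D-3 (adjusted p = 0.933 for the difference of −0.14). Of 19 blood and macrophage markers 4 lay above background in each of IP14D-1 and CL11.

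Other genes rose strongly as well. Prss23, a secreted protease, read 14.90, 14.64 and 14.64 log2 in IP14D-1 and 10.47, 10.14 and 10.40 in CL11, at least 12.9-fold higher (adjusted p = 6.48e-09). Has2, which makes hyaluronan, changed by 2.75 ± 0.17 (adjusted p = 5.55e-09), Cyp1b1, a monooxygenase, by 2.59 ± 0.23 (adjusted p = 4.91e-07) and Ptgs2, cyclooxygenase 2, was at least 6.91-fold higher (adjusted p = 2.56e-06). Wls, which carries Wnt proteins to the cell surface, changed by 3.10 ± 0.18 (adjusted p = 2.53e-09). Gadd45g, a stress-induced growth regulator, read 15.82, 15.49 and 15.83 against 12.58, 12.84 and 12.81 (2.97 ± 0.12, adjusted p = 3.47e-11). In MEF Prss23 averaged 19.60 log2, Wls 17.74, Ptgs2 17.64, Cyp1b1 17.21, Gadd45g 16.96 and Has2 14.50, all above IP14D-1. Irs1, Runx1t1, Meis2, Nes, Lce1h and Car3 were at least 4.40-, 5.22-, 4.17-, 4.11-, 3.98- and 3.91-fold higher from below background in CL11. Of these Irs1, Runx1t1, Meis2, Nes and Lce1h also averaged higher in MEF (15.07, 14.77, 15.31, 15.47 and 14.48 log2) than in IP14D-1. Car3 averaged 9.49 in MEF, below background. The part of feeder cells in these rises was not tested.

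Of 37 members of the pluripotency network 7 fell, 4 rose and 26 were not called, where 11.5% of all genes fell and 10.7% rose. The share called was 29.7%, against 22.3% of all genes. Their median was −0.15 log2 relative to all genes, and without scaling 4 members fell and 8 rose. Pou5f1 read 18.68, 18.70 and 18.83 in IP14D-1 and 18.89, 18.99 and 18.91 in CL11 (−0.19 ± 0.23, adjusted p = 0.658), and Sox2 (adjusted p = 0.147), Klf4 (adjusted p = 0.67), Myc (adjusted p = 0.571) and Cdh1 (adjusted p = 0.131) were not called either. Nanog fell by 0.47 log2 (adjusted p = 0.0201), a call lost without scaling and without CL11 replicate 1 or 3 or IP14D-1 replicate 1 or 3 (adjusted p = 0.0562 to 0.0745). The other falls included Tfcp2l1, a factor of the naive state (−1.03 ± 0.17, adjusted p = 0.000323), Fgf4, the growth factor that directs neighbouring cells to primitive endoderm (−0.95 ± 0.09, adjusted p = 9.5e-07), and Jam2, an adhesion molecule (−0.96 ± 0.10, adjusted p = 4.13e-06). Lefty1, a Nodal inhibitor, changed most and read 17.27, 17.31 and 17.39 against 15.01, 15.03 and 14.92 (2.33 ± 0.11, adjusted p = 8.69e-11). Lefty1 averaged 16.75 in IP20D-3, between CL11 and IP14D-1, and IP14D-1 was 0.67 log2 below IP14D-101 (difference −0.67, adjusted p = 0.000137).

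Genes of the primed epiblast, the later state in which cells ready themselves for gastrulation, were mostly higher in IP14D-1. Of 18 members 12 rose and 2 fell, with a median of 0.70 log2 relative to all genes and a positive one without scaling and under median scaling and quantile normalisation. Fgf5, the usual marker of this state, read 12.31, 11.51 and 12.89 in IP14D-1 and at most 8.92 in CL11, below background, and was at least 2.29-fold higher (adjusted p = 0.000827). Pim2, a survival kinase, changed by 1.90 ± 0.10 (adjusted p = 1.06e-09), Pou3f1, the factor Oct6, by 1.57 ± 0.29 (adjusted p = 0.000874), Zic2, a zinc finger factor, by 1.41 ± 0.33 (adjusted p = 0.00581) and Grhl2, an epithelial regulator, by 1.11 ± 0.19 (adjusted p = 0.000424). The de novo methyltransferases split, Dnmt3b rising by 0.78 log2 (adjusted p = 0.000704) while Dnmt3a (−0.87 ± 0.21, adjusted p = 0.00662) and the factor Tcf15 (−1.07 ± 0.24, adjusted p = 0.00361) fell. Against IP20D-3 only 2 of the 18 were higher in IP14D-1 and 1 lower, and against IP14D-101 7 were higher and 2 lower.

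Of 23 genes of the primitive streak, mesoderm and Wnt signalling 6 rose and none fell. Under median scaling 4 rose and 1 fell, and 3 rose without CL11 replicate 2 or IP14D-1 replicate 1. Sp5, a direct Wnt target, read 14.68, 14.41 and 14.89 log2 in IP14D-1 and 10.49, 10.77 and 10.29 in CL11, at least 12.3-fold higher (adjusted p = 3.99e-05). It averaged 11.20 in IP20D-3 and 10.90 in IP14D-101, and IP14D-1 was 3.46 log2 higher than IP20D-3 (adjusted p = 0.000801) and at least 12.3-fold higher than IP14D-101, which lay below background (adjusted p = 7.7e-05). Axin2, the feedback inhibitor of the pathway, was chosen after its values were seen and changed by 0.91 ± 0.24 (adjusted p = 0.0131), a call lost without CL11 replicate 2 (adjusted p = 0.0604) or IP14D-1 replicate 3 (adjusted p = 0.0517). Epithelial genes of junctions and keratins rose in 9 of 25 cases and none fell; Dsp, a desmosome protein, changed by 1.82 ± 0.23 (adjusted p = 2.44e-05) and Rab25, a trafficking GTPase, was at least 3.07-fold higher (adjusted p = 0.0004).

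Of 19 LIF receptor and STAT3 target genes 7 fell and 2 rose, and without scaling 4 fell and 4 rose. Gbx2, a STAT3 target that is also a neural gene, changed by −1.51 ± 0.19 (adjusted p = 2.08e-05) and Mras, a small GTPase, by −1.45 ± 0.16 (adjusted p = 4.49e-06), while the kinase Pim1 (1.03 ± 0.09, adjusted p = 4.4e-07) and the feedback inhibitor Socs2 (0.38 ± 0.08, adjusted p = 0.00238) rose. Bmp4, a ligand that helps hold ES cells undifferentiated in serum, read 14.13, 14.26 and 14.96 in IP14D-1 and 16.29, 16.43 and 16.38 in CL11 (−1.92 ± 0.16, adjusted p = 2e-07). Tead4, the trophoblast factor, fell as well (−2.41 ± 0.24, adjusted p = 1.59e-06). These were the 2 trophoblast list members called, of 18 (11.1%, below the 22.3% of all genes). Plet1, a surface marker of placental and endoderm progenitors, read 11.93, 11.72 and 12.06 against 14.66, 14.74 and 14.79 (−2.83 ± 0.35, adjusted p = 1.64e-05). Khdc3, an oocyte and early embryo gene (−2.13 ± 0.19, adjusted p = 3.41e-07), Liph, a phospholipase (−2.15 ± 0.26, adjusted p = 1.63e-05), Gjb5, a connexin (−2.48 ± 0.51, adjusted p = 0.00213), and Hpdl (−2.23 ± 0.45, adjusted p = 0.00183) were other large falls.

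Imprinted genes, expressed from 1 parental copy, rose more often than they fell. Outside the Dlk1-Dio3 cluster 11 of 33 rose and 2 fell, and under median scaling 5 rose and 4 fell. Plagl1, a paternally expressed zinc finger gene, read 16.08, 16.16 and 16.05 log2 in IP14D-1 and 12.63, 12.62 and 12.37 in CL11 (3.56 ± 0.12, adjusted p = 2.22e-12). Impact changed by 1.65 ± 0.08 (adjusted p = 3.43e-10), while the amino acid carrier Slc38a4 fell by 0.63 log2 (adjusted p = 2.57e-05). Plagl1 averaged 15.07 in IP20D-3, 14.64 in IP14D-101 and 16.36 in MEF, so CL11 was the lowest of all groups. In the Dlk1-Dio3 cluster, whose silencing marks some iPS lines, Meg3 read 17.26, 17.34 and 17.28 against 16.39, 16.40 and 16.39 (0.90 ± 0.12, adjusted p = 4.39e-05), and Dlk1 changed by 1.38 ± 0.20 (adjusted p = 8.4e-05). Rian was not called by its brightest probe set (0.51 ± 0.27, adjusted p = 0.23), though another of its 4 probe sets was (1.48, adjusted p = 0.000121). In IP20D-3 Meg3 averaged 13.37 and Rian 9.90, and IP14D-1 was 3.93 log2 higher for Meg3 (adjusted p = 7.01e-13).

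Mid1, a microtubule-bound ubiquitin ligase whose gene spans the pseudoautosomal boundary in laboratory mice, had the largest rise of any gene above background in both lines and read 15.75, 15.92 and 15.88 against 12.19, 12.32 and 12.27 (3.59 ± 0.18, adjusted p = 2.71e-10). It averaged 15.88 in IP20D-3, 11.37 in IP14D-101 and 13.88 in MEF. The Y-linked gene Eif2s3y was above background in both lines, 15.61, 15.66 and 15.62 in IP14D-1 and 14.40, 14.12 and 13.86 in CL11 (2.83-fold, adjusted p = 0.015), a call lost without CL11 replicate 3 (adjusted p = 0.0674) or IP14D-1 replicate 2 (adjusted p = 0.0503). In MEF Eif2s3y averaged 8.29, below background. Xist, the RNA that coats an inactive X chromosome, read 13.55, 13.68 and 13.77 against 13.06, 13.23 and 12.86 (0.62 ± 0.19, adjusted p = 0.0336) and averaged 16.92 in MEF; its call was lost under median scaling and without any array other than CL11 replicate 2 (adjusted p = 0.0536 to 0.136). Of 34 genes of DNA methylation and chromatin 12 fell and 3 rose, without scaling 2 fell and 7 rose, and without CL11 replicate 2 or 3 7 fell; Ehmt2, a histone H3 lysine methyltransferase, changed by −0.89 ± 0.10 (adjusted p = 6.86e-06).

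Of 18 heat shock proteins 8 were lower and 1 higher, without scaling 3 fell and 6 rose, and 5 were lower without IP14D-1 replicate 2; Hspa1a, the inducible HSP70, was at least 4.05-fold lower (adjusted p = 1.26e-05) and Hspa1b changed by −1.58 ± 0.26 (adjusted p = 0.00029). Of 22 oxidative stress genes 8 were lower and 3 higher, without scaling 1 fell and 6 rose, and 5 were lower without IP14D-1 replicate 1 or 2. Srxn1, a target of the factor NRF2, changed by −1.26 ± 0.13 (adjusted p = 2.74e-06), whereas the metallothioneins Mt1 (0.95 ± 0.08, adjusted p = 2.5e-07) and Mt2 (0.58 ± 0.06, adjusted p = 1.69e-06) rose. Immediate early genes split into 9 of 29 higher and 6 lower (4 higher and 7 lower under median scaling), with Ier3 (−1.65 ± 0.14, adjusted p = 3.16e-07) and the FGF target Etv4 (−1.57 ± 0.15, adjusted p = 8.82e-07) among the falls. Of 27 interferon and antigen presentation genes 6 rose, led by Psmb8 (at least 1.13-fold) and Oasl2 (at least 1.66-fold), and 3 fell, all of the Ifitm family, such as Ifitm3 (−0.76 ± 0.09, adjusted p = 8.44e-06); under median scaling 4 were higher and 7 lower, and 1 was lower without CL11 replicate 1 or IP14D-1 replicate 1 or 2. Neural genes rose in 6 of 22 cases and fell in 1, and Cdh2, N-cadherin, changed by 1.87 ± 0.17 (adjusted p = 4.32e-07).

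The germ line list (2 of 24 higher, 2 lower), HOX genes (2 of 31 higher) and blood and macrophage genes (1 of 19 higher, 2 lower) had shares called below that of all genes, and leaving out 1 array moved these counts to between 0 and 3. In limma 0 of 16 cytosolic ribosomal proteins and 0 of 9 genes of the 2-cell-like state were called, with 1 and 0 at an unadjusted p under 0.05; without scaling 9 ribosomal proteins and 1 gene of the 2-cell-like state were higher. Of 11 reference genes 1 was higher and 3 lower, and without scaling 5 were higher and none lower.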

How the data were processed

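Affymetrix expression arrays of 15 samples were analysed, 3 per group. Per the submitters' processing notes, the authors made the values with Affymetrix Expression Console and the MAS5 method; the deposited values are signal intensities per probe set on a linear scale, and the scaling target is not given in the sources used here. Trimmed means (2% off each end) of the deposited intensities ranged from 11141.76 to 20355.521 over the arrays, and arrays were brought to the average of these before log2(signal + 16). The 64 control probe sets were left out. Of the 45037 others 34945 had 1 gene symbol, 932 several and 9160 none. All 15 arrays were fitted with 1 mean per group in limma 3.58.1 (R 4.3.3, Python 3.11.15), with a variance trend and Benjamini-Hochberg adjustment over all probe sets; the test was checked on simulated data. The number of arrays limits the precision. The labels give no batch.

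The lines and gene lists were chosen with earlier results of these data known. Named genes were, by rule, the 12 largest rises and falls above background, the 12 largest by bound, up to 8 called members of each list described in a paragraph (2 of others) with members that moved against their list, and a fixed set; Slc7a11, Creld2, Calr and Axin2 were added after their values were seen. Alternatives were other scalings, 3 other pseudocounts, a background filter, other sets of arrays, no trend, 1 probe set per gene, a replicate block and each array left out. Promoter windows came from RefSeq (GRCm38.p6).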

Additional observations from a re-analysis of the deposited data

Results flagged for a closer look

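In 13 named genes IP14D-1 was called in one direction against CL11 and another iPS line in the opposite direction, and IP14D-1 differed from that line in the limma fit. All these comparisons share the CL11 or IP14D-1 arrays. IP14D-101 has another genetic background, so line and background cannot be told apart there.

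Against IP20D-3, IP14D-1 was higher by 3.93 log2 for Meg3, 2.27 for Cryab, 2.18 for Cdkn2b, 1.67 for Cald1 and 1.21 for Perp, and differed by −0.80 for Ifitm1. Against IP14D-101 it was higher by 4.48 log2 for Mid1, 2.33 for Grb10, 1.77 for Krt8, 1.74 for Krt18, 1.48 for Cald1, 1.39 for Perp, 1.08 for Gadd45a and 0.89 for Mt2. Fst lay below background in IP14D-101 (10.65 log2), so its fitted difference of 4.10 is no measured fold, and it was at least 13.1-fold higher in IP14D-1. Cald1, a contractile regulator, and Perp, a desmosome protein induced by p53, differed from both lines. Groups of 3 arrays were not tested for outlying samples.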

How the results depend on the processing

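The split of calls into higher and lower depended on scaling, and the total on the variance trend and the number of arrays. Against CL11 4048 genes were called in all, 4218 without scaling, 4506 under median scaling, 2941 without the variance trend and 2948 without IP14D-1 replicate 2. Without scaling 3732 genes were called higher and 486 lower against CL11, and under median scaling 958 and 3548. Against IP20D-3 6640 genes were called without scaling and 539 without the variance trend. Leaving out each array in turn gave 1403 to 1747 genes higher and 1545 to 1889 lower against CL11, 784 to 1050 called against IP20D-3 (784 without IP14D-1 replicate 1, 787 without IP14D-1 replicate 2, 818 without IP20D-3 replicate 1, against 1346 with all arrays) and 3745 to 4757 against IP14D-101. With the replicate number as a block 1914 genes were higher and 2058 lower, and 1230 and 4800 were called against IP20D-3 and IP14D-101; arrays with the same number did not deviate together (correlations of −0.00206, −0.0208 and 0.00448). Of 201 named genes that were called, 140 were called under each of the 18 alternatives that tested them and 168 without any one array. The background filter tested and called 186 of the 201 and left the others out. The direction turned for Eif2s3x (0.12 log2) and Ifitm2 (0.0107) without scaling and for Ndufa1 (−0.0238) under median scaling; the cause was not tested. Genes below background in both lines have no reliable fold.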
